A study of Danio rerio with 18 samples.

Results

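Genes that encode the parts of the lysosome were followed in zebrafish (Danio rerio) NMLF, the nucleus of the medial longitudinal fascicle, a midbrain group of neurons with axons that run down the spinal cord and regrow after the cord is severed. The set was chosen by gene name: symbols of cathepsins and related proteases (cts), the vacuolar proton pump (atp6v and atp6ap), lysosome-associated membrane proteins (lamp), glycosidases and lipid hydrolases (hexa, hexb, gba, gla, glb1, gaa, neu, asah1), cholesterol exporters (npc1, npc2), prosaposin (psap), the receptor scarb2, the cln genes and the granulins. It holds 43 of the 8793 genes with a single symbol on the array, which were measured by 46 probe sets. Of these, 13 are proteases, 15 belong to the pump and 15 have other roles. Each gene is given by its brightest probe set. The legumain gene lgmn was left out by the rule and is described with the other lysosomal hydrolases. The genes hexa, hexb, gba, gla and gaa, which the name pattern also covers, were not analysed here, and asah1b was left out because its probe set is annotated with a second gene.

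The tissue was cut from brain sections by laser capture and measured on 18 Affymetrix arrays, 1 per sample, in 6 groups of 3. Fish had the spinal cord transected or had sham surgery, which serves as the control, and tissue was taken 4 h, 12 h and 11 d later. The early times were set against 11 d, in the period of axon regrowth. Strain, age and sex of the fish are not given in the sources used here, and neither is whether a sample pooled several fish, so the tests speak only of the spread between these samples, which may be technical. All signals below are quantile-normalized intensities with a floor of 16, group levels are geometric means of 3 arrays, and changes are log2 differences, transected minus sham, with the SE of a limma model fitted to all 18 arrays. A change was called at a Benjamini-Hochberg adjusted p under 0.05, taken over all 15502 probe sets tested. The number of arrays limits the precision.

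Lysosomes are acidic compartments in which cells break down proteins, lipids and sugars taken in from outside or delivered by autophagy. The vacuolar ATPase, a rotary pump with a V1 sector that hydrolyses ATP and a V0 sector that carries protons across the membrane, keeps the lumen acidic, and it also acidifies synaptic vesicles of neurons. Many cathepsins mature and work best in this acid. In the brain many cathepsins and granulins are abundant in microglia, the resident phagocytes that clear debris after injury.

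Some arrays stood apart. The replicate 3 arrays at 11 d differed from the rest of their time on the first principal component, at 20.1 for sham and 28.3 for transected against -43.0 to -28.8. The replicate 1 arrays at 4 h, at -22.1 for sham and -29.7 for transected, differed from the other 4, which lay between 12.3 and 48.4, the highest of all 18 being sham replicate 2. Without both replicate 1 arrays at 4 h the median changes at that time were 0 for the proteases and 0.017 for the pump. Without sham replicate 2 the protease median at 4 h was -0.20, and without sham replicate 1 it was 0.13. Without both replicate 3 arrays at 11 d the protease median at 11 d was 0.24, the pump median 0.088, and the change of ctsba 0.49 and of ctsla 0.94. The GAPDH 3'/5' ratio, a measure of RNA shortening, was 3.15 to 5.40 at 12 h and 1.39 to 2.88 at 4 h and 11 d. Within groups, correlations between arrays ranged from 0.936 to 0.984, and 0 pairs of columns were identical.

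At 11 d the mean signal of 9 of the 13 proteases was higher, and of 3 lower, after transection than after sham surgery (1 was at the floor on all arrays), with a median log2 change of 0.17, while the 15 pump genes were split 7 to 8 around a median of -0.0037 and 11 of the 15 other members were higher (median 0.25). At 4 h, 3 of 13 proteases were higher (46.6% of all genes) and 9 lower (41.7%), with a median of -0.035. At 12 h, 2 were higher (41.3%) and 10 lower (46.4%), with a median of -0.068. Protease medians within same-numbered pairs had both signs at 4 h (-0.12, 0.052 and -0.14) and at 12 h (-0.17, -0.052 and 0.054). No member passed the test at any time. For comparison, limma called 0% of all probe sets at 4 h, 0.0258% at 12 h and 0.0452% at 11 d, 0.0387% for the mean effect over the 3 times and 0.0516% for effects that differ between times. At an unadjusted p under 0.05, 1 of 43 members was higher at 4 h (background over all genes 1.73%), 1 was higher (2.65%) and 1 lower (2.65%) at 12 h, and 4 were higher at 11 d (2.65%) with none lower (2.58%). The members at 11 d were ctsla, neu3.2, lamp1b and grnb. For the mean effect over the 3 times 2 members were higher at that level, neu3.2 and ctsla (2.57%). Signals of 4 members at 11 d (ctsba, neu3.2, lamp1b and asah1a) were higher on every transected array than on any sham array, and of 0 members were they lower on every one (3.1% and 3.58% of all genes). At 4 h 1 member was higher without overlap (neu3.2, 3.42%) and 1 lower (grnb, 1.8%), and at 12 h 1 was higher (atp6v1d, 5.14%) and 3 lower (cln6a, grnb and atp6v1c1b, 5.38%). Over all 8793 genes the median change at 11 d was 0, and 41.5% of them were higher and 46.7% lower. In bulk tissue, fewer cells of a type and less RNA per cell cannot be told apart.

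**Figure D1:**
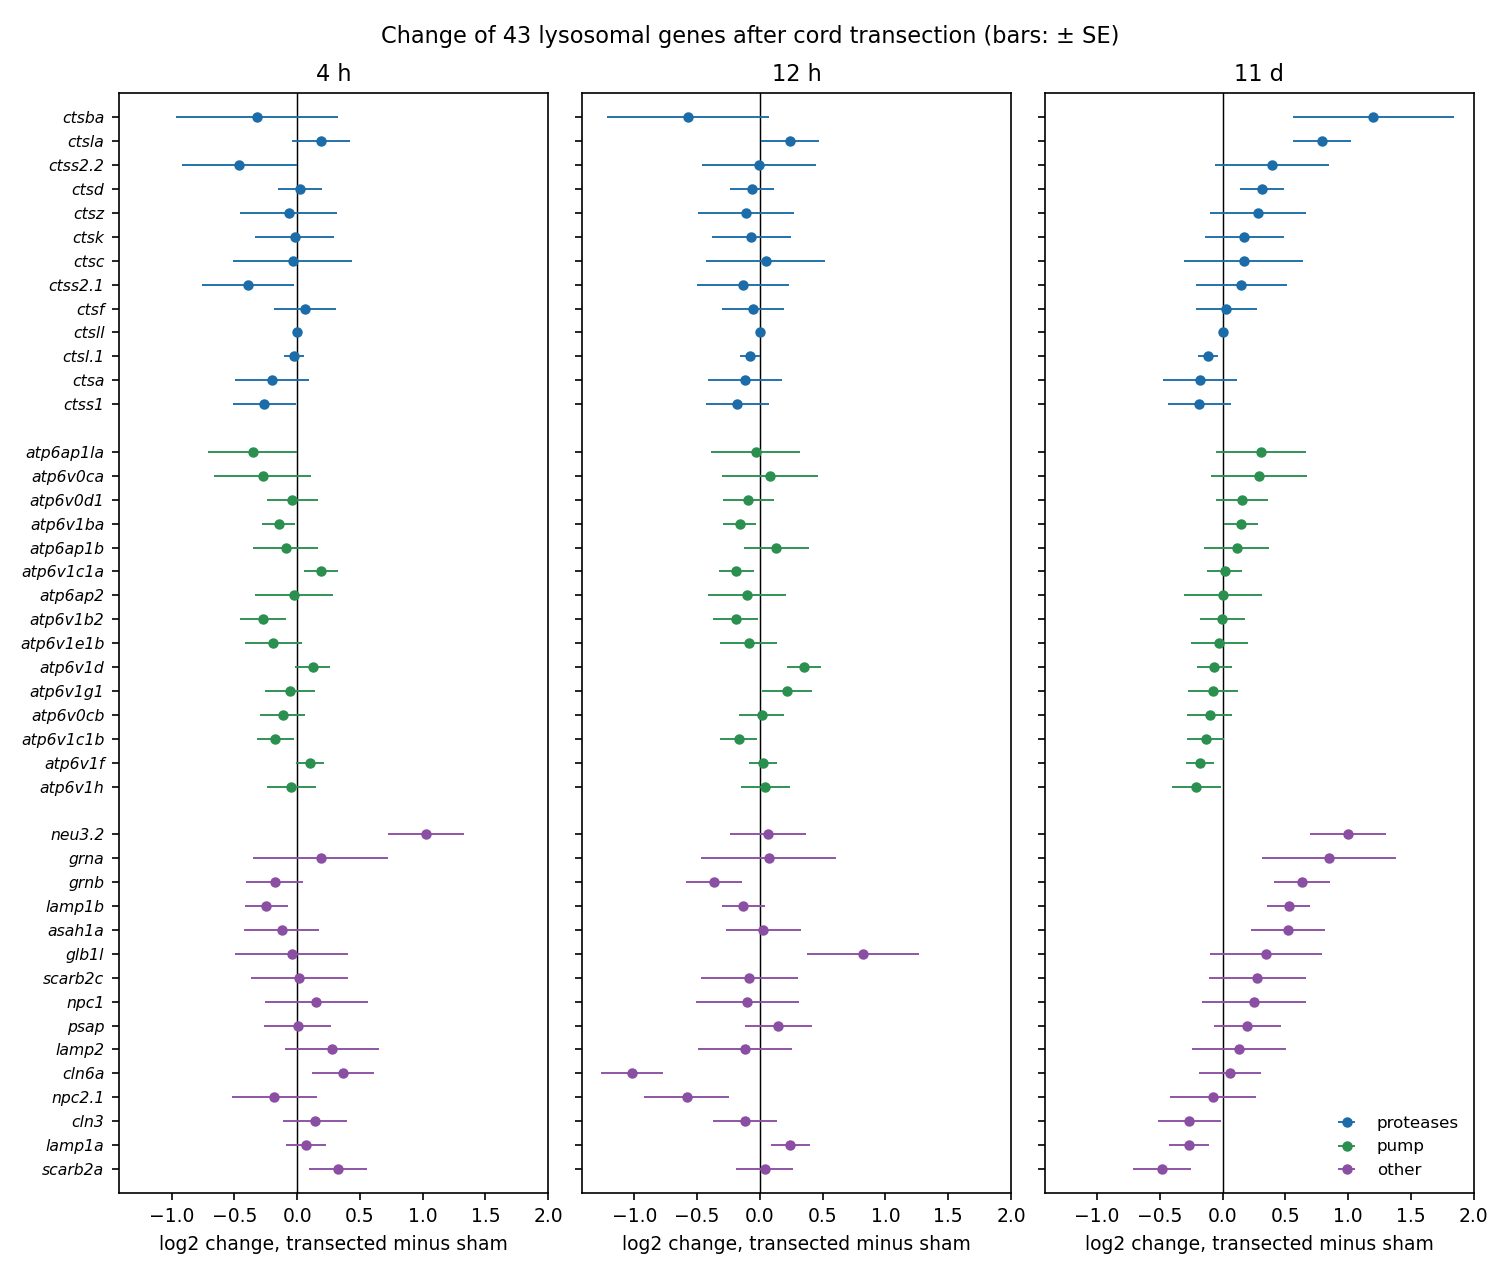
Log2 change, transected minus sham, of each of the 43 lysosomal genes at 4 h, 12 h and 11 d (points, with bars of ± 1 SE from the limma fit), for proteases, pump genes and other members, sorted within each role by the change at 11 d. At 11 d the proteases reach from -0.18 to 1.20, and the pump genes stay between -0.21 and 0.31. The upper end of the proteases is ctsba alone (SE 0.64), and the next is ctsla at 0.79.

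Among the proteases, the cathepsin L gene ctsla, a cysteine endopeptidase, gave the smallest p at 11 d. Its signal was 1174, 1546 and 1089.7 on the sham arrays and 2224, 2989 and 1538 on the transected arrays of replicates 1 to 3. Transected replicates 1 and 2 lay above every sham array, and transected replicate 3 fell just below sham replicate 2, so the groups overlapped there. The change was 0.79 ± 0.23 (SE; adjusted p = 0.53 by limma). At 12 h the sham arrays read 1453, 1536 and 1770.2 and the transected ones 1949, 1659 and 2017, a change of 0.24 ± 0.23. At 4 h the signals were 1130.2, 865 and 1331 after sham surgery and 1164, 1113 and 1502 after transection (0.19 ± 0.23), and the groups overlapped at both early times. Its mean effect over the 3 times was 0.41 ± 0.13 (adjusted p = 0.85), and a test of unequal effects at the 3 times gave an adjusted p of 1.

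The cathepsin B gene ctsba, which encodes a cysteine protease with both endopeptidase and exopeptidase activity, had a larger but far less steady difference at 11 d. The sham signals were 2342, 1971 and 610.0 and the transected signals 2675, 3417 and 3745. All transected arrays were above all sham arrays, and sham replicate 3 was the lowest of the 6 by a wide margin. The change was 1.20 ± 0.64 (95% interval -0.20 to 2.60, adjusted p = 1), and 0.60 without sham replicate 3. At 12 h the order was opposite on average, with 2474, 1202 and 2360.2 after sham surgery and 1107, 764 and 2509 after transection (-0.58 ± 0.64). That difference ran from -1.06 without transected replicate 3 to -0.20 without transected replicate 2, and was -0.91 without sham replicate 2. At 4 h the arrays read 1767, 487 and 1941 (sham) and 1436, 624 and 954 (transected, -0.32 ± 0.64), and this difference went to 0.033 without sham replicate 3. The groups overlapped at both early times, and the gene's residual SD of 0.81 on the log2 scale was the highest among the members.

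Of the cathepsin S and K family, cysteine proteases known in mammals for antigen processing and matrix breakdown, 3 genes lie next to one another in the RefSeq gene order (ctsk, ctss2.1 and ctss2.2). Signal shared between such neighbouring copies was not tested. At 4 h ctss2.2 read 115, 28.2 and 40.1 after sham surgery and 40.3, 36.1 and 34.4 after transection. Sham replicate 1 alone stood high, and the change of -0.46 ± 0.46 became 0.13 without it. For ctss2.1 the 4 h signals were 73.6, 39.9 and 45.7 (sham) and 63.9, 38.4 and 24.2 (transected), lower in each same-numbered pair, with a change of -0.39 ± 0.36 and overlapping groups. That change ran from -0.75 without transected replicate 1 to -0.047 without transected replicate 3, and it was -0.13 without sham replicate 1. At 11 d all 3 neighbours were on the higher side, ctss2.2 at 0.39 ± 0.46, ctsk at 0.17 ± 0.32 and ctss2.1 at 0.15 ± 0.36. A second, dimmer probe set of ctss2.2 gave -0.54 at 4 h and 0.56 at 11 d.

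For most of the remaining proteases the changes at 11 d lay closer to 0. The aspartic protease gene ctsd read 1409.7, 1111 and 1115 after sham surgery and 1666, 1724 and 1159 after transection at 11 d, a change of 0.31 ± 0.17 with all same-numbered pairs higher. Genes of the carboxypeptidase cathepsin Z (ctsz, 0.28 ± 0.38) and the dipeptidyl peptidase cathepsin C (ctsc, 0.17 ± 0.47) were also on the higher side at 11 d, and the cysteine protease gene ctsf was at 0.029 ± 0.25. The carboxypeptidase gene ctsa, whose mammalian product protects lysosomal galactosidase and sialidase, was at -0.20, -0.12 and -0.18 at the 3 times. A further cathepsin S gene, ctss1, was at -0.26, -0.18 and -0.18, with 3 of its arrays at the floor. Of the other cathepsin L genes, ctsl.1 was at the floor on 15 arrays and ctsll on all 18, so little of a fall could be seen. The 3 arrays of ctsl.1 above the floor were all sham arrays, 1 at each time, and its changes were -0.023, -0.077 and -0.11.

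All 15 pump genes were above the floor on all arrays. The size of the mean change was under 0.5 in 15 of 15 at 4 h, at 12 h and at 11 d, a share close to that of all genes (93.7%, 90.8% and 92% at these times). None passed the test, and their 95% intervals at 11 d reached from -0.67 to 1.12, so a change of up to about these sizes could not be told from none for the least precise of them. At 4 h, 12 of 15 were lower (median -0.092, beside 41.7% of all genes lower), at 12 h 8 (median -0.034, 46.4%) and at 11 d 8 (median -0.0037, 46.7%). Transected replicate 1 at 4 h had the lowest summed pump signal of the 6 arrays at that time (15741, against 18151 to 20404) and also the lowest summed signal of 13 neuron markers (18304, against 22868 to 28678). Without it the pump median at 4 h was -0.021, and without both replicate 1 arrays it was 0.017. Sham replicate 1 at 4 h had the next lowest neuron sum (22868) and the highest pump sum at that time (20404). At 11 d transected replicate 3 had the highest neuron sum (31633) and the lowest pump sum (18383). The neuron markers had a median change of -0.17 at 4 h, with 10 of 13 lower. The part of neuron content in the pump values was not tested.

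Of the 9 genes of the V1 sector, atp6v1b2, a B subunit of the ATP-hydrolysing head, read 4132, 3474 and 5010.3 after sham surgery and 3323, 3365 and 4319 after transection at 12 h, a change of -0.19 ± 0.18. At 4 h its signals were 4271, 4038 and 5138 (sham) and 3494, 3520.2 and 4093 (transected, -0.27 ± 0.18). At both early times it was lower in each same-numbered pair, and the groups overlapped. At 11 d it was at -0.0037 ± 0.18. The central-stalk gene atp6v1d was the 1 pump gene with groups apart and a higher signal at 12 h, with 477, 509 and 435 after sham surgery against 588, 674 and 557 after transection. All its transected arrays exceeded all its sham arrays, as for 5.14% of all genes at 12 h. The change was 0.35 ± 0.14 (adjusted p = 0.99), and it was 0.12 ± 0.14 at 4 h and -0.067 ± 0.14 at 11 d.

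The C subunit, which joins the sectors and can let them come apart, has 2 genes here, on opposite sides of 0 at 4 h. At 4 h atp6v1c1a read 1126, 819 and 1020.2 after sham surgery and 986, 1172 and 1209 after transection (0.19 ± 0.14), and atp6v1c1b was at -0.17 ± 0.15. At 12 h both were on the lower side, atp6v1c1a at -0.19 ± 0.14 and atp6v1c1b at -0.17 ± 0.15, the latter with all 3 transected arrays (722, 584 and 721) under all sham arrays (765, 754 and 749.7), as for 5.38% of all genes. The H subunit gene atp6v1h, a regulator of the sector contact, had the lowest change of the pump at 11 d, with 1441, 929.5 and 1434 after sham surgery and 1274, 895 and 1087 after transection. Each same-numbered pair was lower, the groups overlapped, and the change was -0.21 ± 0.20. The other V1 genes (atp6v1ba, atp6v1e1b, atp6v1f and atp6v1g1) lay between -0.18 and 0.15 at 11 d.

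In the membrane sector V0 the proton-carrying c subunit genes atp6v0ca and atp6v0cb were at 0.29 ± 0.38 and -0.10 ± 0.18 at 11 d, and the d subunit gene atp6v0d1 at 0.16 ± 0.21. For atp6v0ca, replicate 3 stood above the other arrays of each group at 11 d, with 953, 641 and 1638 after sham surgery and 845, 965 and 2244 after transection, and its second probe set gave 0.087. Of the accessory genes, atp6ap1la had the widest range of group means in the pump (0.96 on the log2 scale). Its 4 h signals were 62.7, 107 and 91.1 (sham) and 44.1, 99.7 and 66.7 (transected), lower in each same-numbered pair (-0.35 ± 0.36). At 11 d they were 41.6, 58.3 and 69.8 (sham) and 83.4, 46.5 and 82.6 (transected, 0.31 ± 0.36), higher in 2 of 3 pairs, and the groups overlapped at both times. The gene atp6ap2, which encodes the prorenin receptor and is needed for pump assembly, was at 0.0064 ± 0.31, and atp6ap1b at 0.11 ± 0.26.

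Set side by side, the median change of the proteases exceeded that of the pump by 0.058 at 4 h, was 0.034 below it at 12 h (difference -0.034), and exceeded it by 0.17 at 11 d. Leaving out 1 array at a time, the difference at 11 d stayed between 0.039 and 0.27, the lowest without sham replicate 1 (protease median 0.020) and next without sham replicate 3 (0.059, protease median 0.036). At 4 h it ran from -0.33 without transected replicate 1 to 0.23. At 12 h it ran from -0.13 without sham replicate 3 to 0.026 without transected replicate 1, so its sign turned there, and it was 0.012 with arrays scaled to 1 trimmed mean. The pump median at 12 h was 0.044 without sham replicate 3. Within same-numbered pairs at 11 d the protease medians were 0.24, 0.12 and 0.056, and those of the pump 0.16, 0.065 and -0.17. At 11 d 6 of 13 proteases were higher in all 3 pairs, against 0 of 15 pump genes, 5 of 15 other members and 11.1% of all genes. In the replicate 3 pair 3 of 15 pump genes were higher, against 10 in each of the others. The direct difference between both lists was given no test, because the members were chosen with earlier results of these data known.

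**Figure D2:**
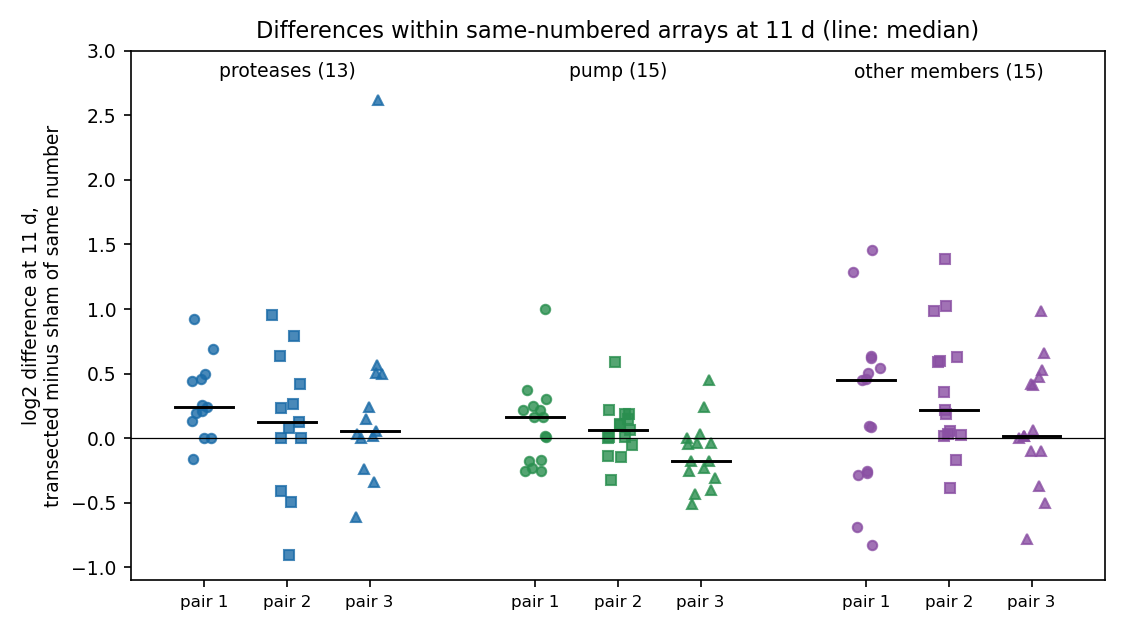
Log2 difference at 11 d, transected minus sham, within each of the 3 same-numbered array pairs, for the 13 proteases, 15 pump genes and 15 other members (1 point per gene, lines are medians). Protease medians are above 0 in all pairs (0.24, 0.12 and 0.056), and the pump median is below 0 in pair 3 (-0.17). Among the proteases in pair 3, ctsba alone stands at the top (2.62).

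By the median gene of each list, the signals of the proteases also varied more from array to array than those of the pump. For genes above the floor on all arrays, residual SDs were 0.22 to 0.81 in proteases and 0.14 to 0.48 in the pump. The part of signal level in this difference was not tested. Among genes above the floor on all arrays, the median residual SD within groups was 0.43 for 10 proteases, 0.24 for 15 pump genes, 0.38 for 13 other members and 0.35 for 5828 genes in all. The group of transected fish at 11 d had the highest mean of the 6 groups for 9 of those 10 proteases, 4 of 15 pump genes, 7 of 13 other members and 18.1% of the 5828 genes. Summed over the 13 proteases, the signal ran from 8683 to 10654 on the transected arrays at 11 d and from 4815 to 7933 on the sham arrays. For the pump the sums at 11 d were 18383 to 19454 after transection and 18879 to 19597 after sham surgery. So the summed protease signals did not overlap between the groups at 11 d, and the summed pump signals did. The brightest probe sets weigh most in such sums, and without ctsba the protease groups overlapped (4938 to 7350 after transection and 4205 to 5962 after sham surgery).

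**Figure D3:**
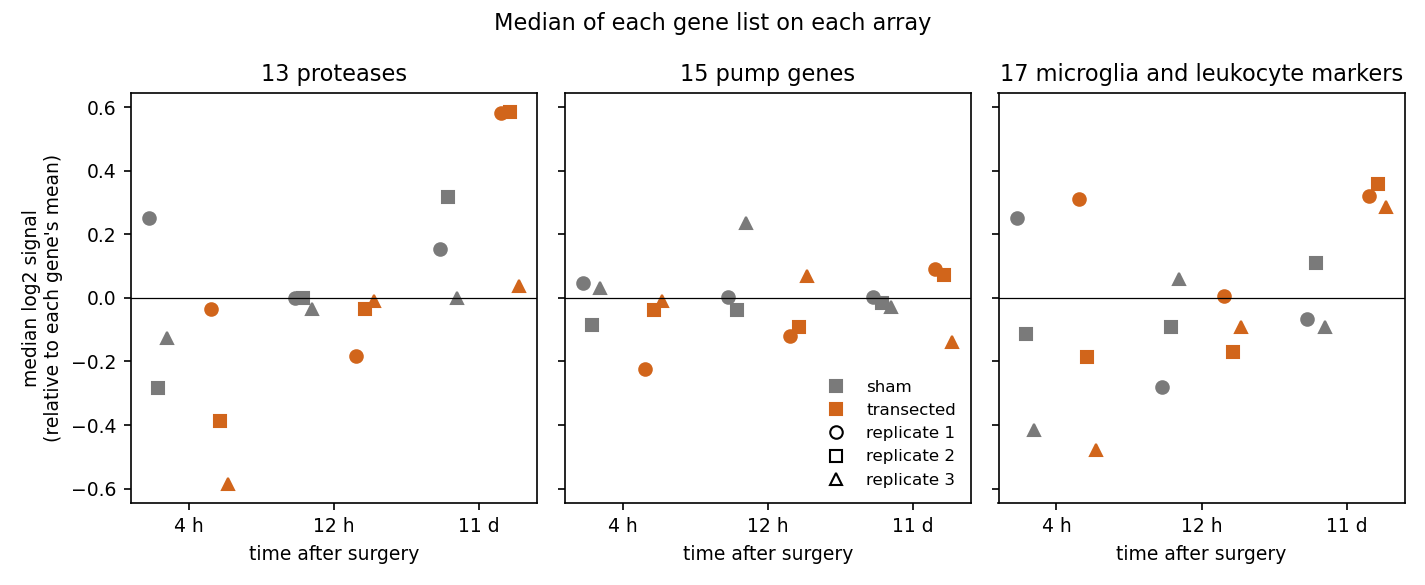
Median over each list of the log2 signal relative to the gene's mean over 18 arrays, for every array, by time (4 h, 12 h and 11 d) and surgery, for 13 proteases, 15 pump genes and 17 markers of microglia and leukocytes. Transected replicates 1 and 2 at 11 d have the highest protease medians. Transected replicate 3 (0.037) lies below sham replicates 1 and 2 (0.15 and 0.32), so the protease medians overlap at 11 d. In the marker list the 3 transected arrays at 11 d lie above the 3 sham arrays (0.29 to 0.36 against -0.093 to 0.11).

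Among the hydrolases, the sialidase gene neu3.2 was higher after transection at 4 h and at 11 d, though neither change passed the test. NEU3 in mammals removes sialic acid from gangliosides, mainly at the plasma membrane. At 4 h the sham arrays read 23.4, 24.8 and 22.9 and the transected arrays 31.1, 44.6 and 80.3. No transected array was as low as any sham array, as for 3.42% of all genes, but the transected arrays were themselves spread widely, with replicate 3 highest. The change was 1.02 ± 0.30 (adjusted p = 1), and 0.65 without transected replicate 3. At 11 d the signals were 35.3, 22.8 and 24.6 after sham surgery and 54.2, 59.8 and 48.7 after transection, again without overlap (3.1% of all genes). The change was 1.00 ± 0.30 (adjusted p = 0.58). At 12 h the sham arrays read 29.2, 40.2 and 55.0, the groups overlapped, and the change was 0.063 ± 0.30. The sham geometric mean was 40.1 at 12 h, 23.7 at 4 h and 27.0 at 11 d. The mean effect over the 3 times was 0.69 ± 0.17 (adjusted p = 0.51).

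The β-galactosidase-like gene glb1l read 211, 126 and 91.7 after sham surgery and 243, 264 and 209.7 after transection at 12 h. Sham replicate 1 lay just above transected replicate 3, and the change was 0.82 ± 0.45 (adjusted p = 1). It was at -0.044 ± 0.45 at 4 h and 0.34 ± 0.45 at 11 d. The acid ceramidase gene asah1a was dim throughout: at 11 d the sham arrays read 19.9, 16 and 16, with replicates 2 and 3 at the floor, and the transected arrays 29.0, 24.1 and 21.4. The groups did not overlap, the change was 0.52 ± 0.30, and it was 0 with a floor of 32. Prosaposin (psap), the precursor of the saposins that present sphingolipids to their hydrolases, was at 0.20 ± 0.27 at 11 d.

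**Figure D4:**
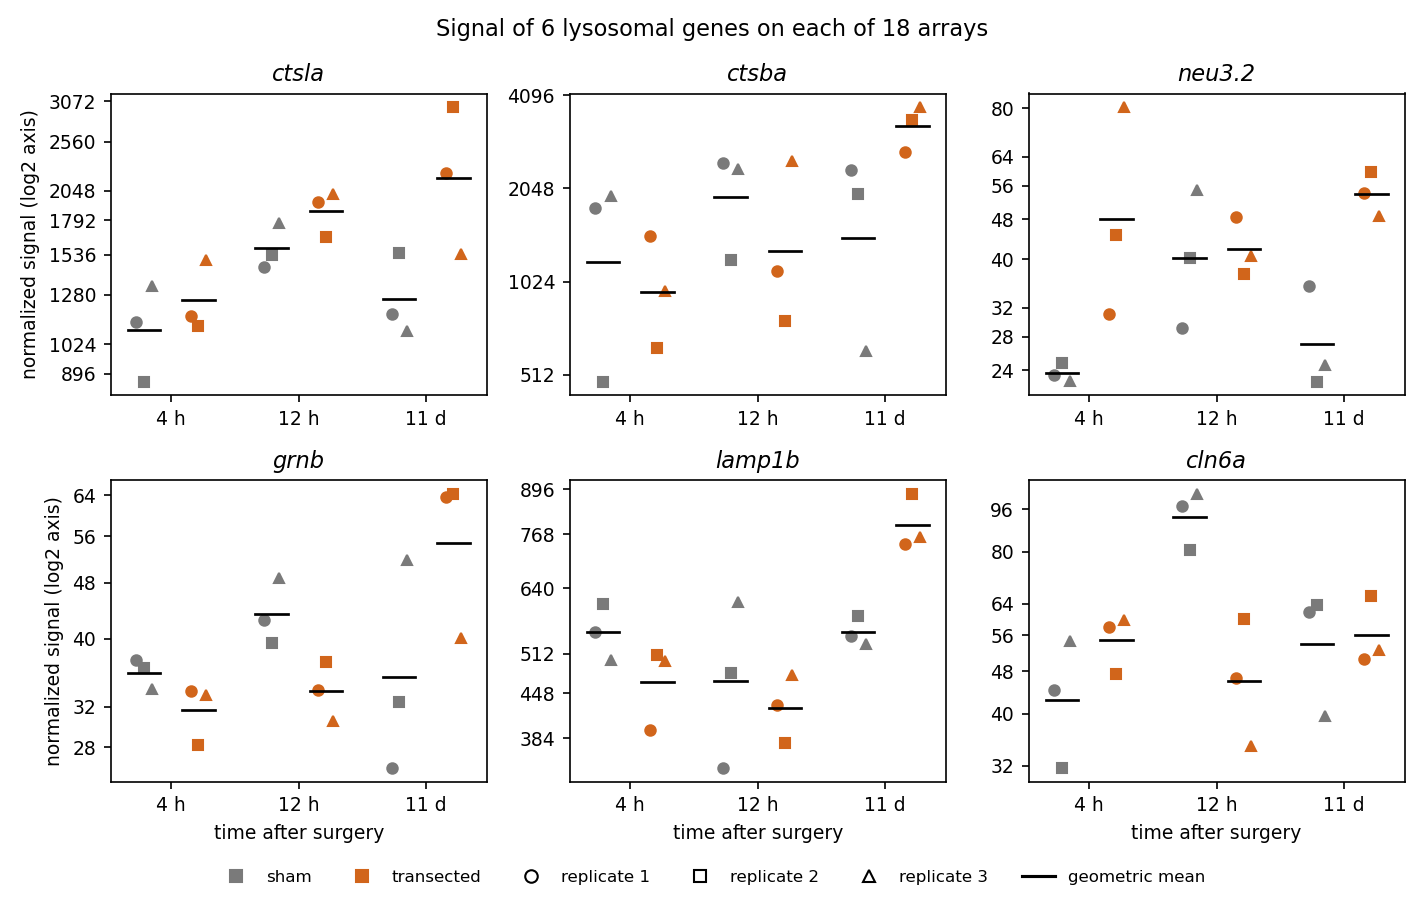
Normalized signal of ctsla, ctsba, neu3.2, grnb, lamp1b and cln6a on each of the 18 arrays (log2 axis, symbols by replicate, lines are geometric means of 3 arrays). The groups do not overlap at 11 d for ctsba, neu3.2 and lamp1b, and for cln6a the 3 sham arrays at 12 h are the highest of all 18.

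Of the membrane proteins, lamp1b, a heavily glycosylated protein that lines the lysosomal membrane, had groups well apart at 11 d (it is shown because of its p, chosen after its values were seen). Its sham signals were 544, 582 and 529.9 and its transected signals 744, 882 and 763. The lowest transected array stood well above the highest sham array, and the 3 arrays of each group lay close together. The change was 0.53 ± 0.17 (adjusted p = 0.69), and between 0.45 and 0.57 when 1 array was left out. At 4 h it was at -0.24 ± 0.17 and at 12 h at -0.13 ± 0.17, and the test of unequal effects at the 3 times gave an adjusted p of 1. In that test lamp1b, cln6a and grnb were the 3 of 43 members under an unadjusted p of 0.05 (4.14% of all genes).

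Its paralogue lamp1a had a lower mean after transection at 11 d. The signals were 168, 181 and 203 after sham surgery and 179, 138 and 143 after transection. Transected replicates 2 and 3 were below every sham array and replicate 1 was among them, for a change of -0.27 ± 0.16. At 12 h lamp1a read 139, 161 and 162 (sham) and 225, 149 and 178 (transected), where transected replicates 1 and 3 stood above every sham array and replicate 2 among them (0.24 ± 0.16). The gene lamp2, whose product also takes part in chaperone-mediated autophagy, read 570.0, 209 and 274 after sham surgery and 529.9, 333 and 329 after transection at 4 h. Its change of 0.28 ± 0.37 turned to -0.029 without sham replicate 2.

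The gene scarb2a encodes a form of LIMP-2, which in mammals carries glucocerebrosidase to the lysosome. At 11 d its signals were 42.7, 27.4 and 39.2 after sham surgery and 26.5, 27.7 and 22.8 after transection. Sham replicate 2 lay among the transected arrays, and the change of -0.48 ± 0.23 (adjusted p = 1) was the lowest of all members at this time. At 4 h the signals were 62.9, 39.1 and 34.3 (sham) and 67.3, 52.4 and 47.1 (transected), higher in each pair with overlapping groups (0.33 ± 0.23). The related scarb2c was at 0.28 ± 0.39 at 11 d.

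The gene cln6a encodes an endoplasmic reticulum protein needed, in mammals, to send enzymes to the lysosome, and its loss causes neuronal ceroid lipofuscinosis. At 12 h the sham arrays read 97.3, 80.4 and 103 and the transected arrays 46.5, 59.9 and 34.8. The groups were well apart. Sham geometric means were 42.4 at 4 h, 92.9 at 12 h and 53.8 at 11 d, and transected ones 54.7, 45.9 and 56.0. So the 12 h sham arrays, rather than the transected ones, lay furthest from the other times. The change at 12 h was -1.02 ± 0.25 (adjusted p = 0.52). At 4 h, with 44.2, 31.7 and 54.5 after sham surgery and 58.0, 47.4 and 59.7 after transection, it was 0.37 ± 0.25, higher in each pair. Unequal effects over time gave an adjusted p of 0.91, and the test over the 3 sham groups an adjusted p of 0.31. The gene cln3, which encodes a lysosomal membrane protein and was at the floor on 9 arrays, read 28.4, 21.2 and 16 (sham) and 16, 21.7 and 16 (transected) at 11 d (-0.26 ± 0.25).

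The Niemann-Pick genes encode the carriers that hand cholesterol out of the lysosome, NPC2 in the lumen and NPC1 in the membrane. At 12 h npc2.1 read 924, 679 and 1163 after sham surgery and 542, 461 and 869 after transection. The groups overlapped, and the change was -0.58 ± 0.34 (adjusted p = 1). At the other times it was at -0.18 and -0.079, and npc1 was at -0.10 ± 0.41 at 12 h and 0.25 ± 0.41 at 11 d.

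The granulins are secreted growth factors that are also delivered to lysosomes, and in mammals progranulin is made by microglia and neurons. At 11 d grnb read 26.1, 32.5 and 51.8 after sham surgery and 63.6, 64.3 and 40.1 after transection. Replicates 1 and 2 were clearly apart while replicate 3 was reversed, so the groups overlapped and the change was 0.63 ± 0.22 (adjusted p = 0.82). Leaving out both replicate 3 arrays at 11 d removes the reversed pair and leaves 2 arrays in each group there. In that fit the change was 1.13 (adjusted p = 0.0055 by limma), and the F test of unequal effects gave an adjusted p of 0.013. In that setting limma called 0.168% of all probe sets at 11 d and 0.11% for unequal effects. At 12 h grnb read 42.4, 39.4 and 48.7 (sham) and 33.7, 37.1 and 30.6 (transected), with all transected arrays below all sham arrays (-0.36 ± 0.22, adjusted p = 1). At 4 h the transected arrays (33.7, 28.2 and 33.2) were also below the sham arrays (37.3, 36.3 and 33.9), with a change of -0.18 ± 0.22 and groups that stood apart by a narrow margin, as for 1.8% of all genes.

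The second granulin gene, grna, showed the same split among replicates at 11 d. Its signals were 49.2, 75.4 and 44.9 after sham surgery and 135, 153 and 46.8 after transection. Transected replicates 1 and 2 stood above all sham arrays and replicate 3 was at the sham level, for a change of 0.85 ± 0.54. At 4 h and 12 h it was at 0.19 ± 0.54 and 0.069 ± 0.54.

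Across the 3 sham groups, 5 of 43 members had an unadjusted p under 0.05 (background 8.03% of genes), and none passed (limma called 0.0258% of probe sets). They were cln6a, atp6v1d (sham geometric means 335, 473 and 339.6, adjusted p = 0.41), atp6v1f, atp6v1c1a and scarb2a (43.9, 27.9 and 35.8). Time after surgery cannot be told apart here from other differences between the sampling times.

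Lysosomal genes outside the name pattern were read from lists of other hydrolases, membrane and sorting proteins, autophagy, cystatins and MiT/TFE factors. Of 21 other lysosomal hydrolases, 17 had a higher mean after transection at 11 d and 3 a lower one (median 0.17), and none passed. At an unadjusted p under 0.05, 4 of 21 were higher (background 2.65%). Those furthest from 0 were pla1a, a phospholipase grouped with them (1.04 ± 0.34, adjusted p = 0.7), the serine carboxypeptidase-like gene scpep1 (0.60 ± 0.21) and lgmn, which encodes legumain, the asparaginyl endopeptidase that processes cathepsins (0.60 ± 0.18, adjusted p = 0.58). Signals of lgmn at 11 d were 286, 199 and 254 after sham surgery and 419, 336 and 357 after transection, without overlap (3.1% of all genes). At 12 h the list was split 11 to 10, and the carboxypeptidase-like gene cpvl was at -0.52 ± 0.11 (adjusted p = 0.38), with 161, 132 and 143 after sham surgery and 98.7, 86.7 and 121 after transection.

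The lists nearer to membrane traffic had medians closer to 0 at 11 d. Of 26 membrane and sorting genes 17 were higher and 9 lower (median 0.046), with laptm4a at 0.69 ± 0.40 and laptm5, a protein of immune-cell lysosomes, at 0.56 ± 0.31. Of 18 autophagy genes 11 were higher and 5 lower (median 0.058), with the cargo receptor gene sqstm1 at 0.53 ± 0.32. Cystatins are inhibitors of cathepsins, and both of the 2 measured cystatin genes were on the higher side at 11 d (median 0.40). Of these, cst3 was at 0.33 ± 0.40 and the other at 0.47. Of the MiT/TFE factors, which in mammals switch on lysosomal genes, tfe3a was at 0.56 ± 0.27 at 12 h. Its groups did not overlap at 12 h, as for 5.14% of all genes. At 11 d tfe3a was at -0.089 ± 0.27 and mitfb at 0.075 ± 0.38. No gene of these lists passed at any time.

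Markers of cell types were read on the same arrays. All 13 measured neuron markers, snap25a and gap43 among them, were above the floor on all 18 arrays, with summed signals of 21932 to 27760 after sham surgery and 24717 to 31633 after transection at 11 d, and a median change of 0.027. At 11 d 9 of the 13 had a higher mean after transection and 4 a lower one, from -0.23 to 1.28. Signals of 3 were higher without overlap (3.1% of all genes), and none passed the test. Of 17 measured markers of microglia and leukocytes, 13 had a higher mean after transection at 11 d and 4 a lower one (median 0.27). Signals of 4 were higher without overlap (3.1% of all genes), and none passed. The summed signal of the 17 markers at 11 d was 10777 to 12343 after transection and 7403 to 8745 after sham surgery, without overlap. The brightest probe sets weigh most in these sums too, and the changes of single markers at 11 d ran from -0.51 to 0.92. At 4 h the sums were 6005 to 10238 (sham) and 6135 to 11237 (transected), and at 12 h 7169 to 9348 and 7356 to 7983. The microglial lipid-carrier gene apoc1 was at 0.75 ± 0.27 and the scavenger receptor gene marco at 0.92 ± 0.39 at 11 d. Among the defining markers, slc7a7 was at the floor on 13 arrays and the neutrophil genes lyz on 7 and mpx on 1. The part of these cells in the protease values was not tested.

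In the other marker lists 1 of 8 radial glia and 1 of 5 erythrocyte markers passed at 11 d (0.0452% of all probe sets). Both were lower after transection (cyp19a1b, brain aromatase, and alas2, which starts haem synthesis in red cells). Of the 8 radial glia and astroglia markers, 5 had a higher mean after transection at 11 d and 3 a lower one (median 0.22). The mean of all 5 erythrocyte markers was lower after transection at 11 d (median -0.84) and at 12 h (median -0.21), and of 4 of 5 at 4 h (median -0.28). At 11 d 2 of the 5 were lower without overlap (3.58% of all genes). The part of blood content in the member values was not tested. Oligodendrocyte and endothelial markers had medians of -0.16 and -0.22 at 11 d over 5 and 4 genes. Their medians were 0.20 and 0.014 at 4 h and -0.16 and -0.0096 at 12 h, and none passed.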

How the data were processed

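Per the labels' protocols, laser-captured tissue gave RNA by an RNeasy Micro kit, which was amplified (RampUP) and labelled as biotin cDNA for Affymetrix arrays. The deposited file holds a linear-scale intensity for each probe set and array (judged from the values). How probes were summarised is not given in the sources used. Both replicate 3 arrays at 4 h had lower trimmed mean intensities (100.4 sham, 92.6 transected) than the other 16 (150.0), which shows unequal scaling before deposit.

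Values were quantile normalized over the 18 arrays, floored at 16 and put on the log2 scale. Each array then had 27.5% to 27.6% of its probe sets at the floor. Of 15617 probe sets, 115 controls were left out. The platform annotation gave a single symbol for 10795 of the 15502 tested, several for 135 and none for 4572. These stand for 8793 genes, 8723 of them found in a RefSeq table (all 43 members), and the brightest probe set stood for each gene. Coordinates are left out because no build was named in the labels or the file. Levels of different probe sets were not compared.

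Groups and replicate numbers came from sample titles. A linear model of 6 group means was fitted in R 4.3.3 by lmFit and eBayes of limma 3.58.1, with 12 residual and 0.51 prior degrees of freedom. The injury effect (transected minus sham) was tested at each time and as a mean, with F tests for unequal effects and between sham groups. The procedure was tested on simulated data for the comparison at 11 d. It recovered 28 of 100 probe sets changed by 1 on the log2 scale and 86 of 100 changed by 2, with 6 false calls. Most changes of 1 were thus missed. The changed probe sets were drawn only from those with a mean above 6 on the log2 scale, and the noise was independent between arrays. Recovery for dimmer genes such as neu3.2, grnb and asah1a was not measured. Same-numbered sham and transected arrays deviated together at 4 h (correlations 0.62, 0.38 and 0.26) and 11 d (0.23, 0.48 and 0.64). At 12 h they hardly did (0.11, -0.0098 and 0.14). Correlations of differently numbered arrays ran from -0.45 to 0.23 at 4 h and from -0.55 to 0.34 at 11 d. At 4 h every same-numbered value lay above that range, the lowest by a narrow margin (0.26 against 0.23). At 11 d the range reached into the same-numbered values. Whether the numbers pair the samples is thus not settled.

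The members, roles and lists were chosen with earlier results of these data known. Signals on every array are given for the 4 members with the highest and the 4 with the lowest change at each time (above the floor on at least 9 arrays), the furthest pump genes, and a few others named for their values (lamp1b, ctsd, asah1a, lgmn, cpvl and atp6v0ca). From the other lists, the 2 genes furthest from 0 or past the threshold were named, and further ones were chosen after their values were seen. Alternatives were other scaling, floors of 8 and 32, only the brightest 10334 probe sets, the mean over probe sets, the replicate number as a block, a trended and robust prior, 6 arrays only, and arrays left out. Figures were drawn with matplotlib 3.10.9 in Python 3.11.15.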

Additional observations from a re-analysis of the deposited data

Results flagged for a closer look

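Among the members, 2 genes had opposite signs at different times in all same-numbered pairs. The cln6a change was 0.37 at 4 h, higher in 3 of 3 pairs, and -1.02 at 12 h, lower in 3 of 3 pairs. At 12 h same-numbered arrays hardly deviated together, but all 3 transected arrays lay below all 3 sham arrays. The lamp1b change was -0.24 at 4 h, lower in 3 of 3 pairs, and 0.53 at 11 d, higher in 3 of 3 pairs. Such opposite triples were found for 3.08% of all genes between 4 h and 12 h and for 3.14% between 4 h and 11 d. The limma F test of unequal effects over the 3 times gave adjusted p-values of 0.91 for cln6a and 1 for lamp1b, so neither difference passed, and the difference between just those times was not tested.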

How the results depend on the processing

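No member was called at 4 h, at 12 h, for the mean effect or between sham groups under any alternative that was run. At 11 d and for unequal effects the count was 1, grnb each time, without both replicate 3 arrays at 11 d (change 1.13), where the pump median at 11 d was 0.088, and 0 otherwise. With the replicate block no member was called in any contrast, and the smallest adjusted p was 0.76 at 4 h (atp6v1b2), 0.22 at 12 h (npc2.1), 0.17 at 11 d (ctsla), 0.21 for the mean effect (ctsla) and 0.49 for unequal effects (cln6a). The F test over sham groups cannot be had with the block, and the 6-array fits give no result over 3 times. With 1 array left out at a time the protease median at 4 h ran from -0.35 to 0.13, and the difference from the pump at 4 h from -0.33 to 0.23. With 1 array left out, signs turned at 4 h for ctss2.2 (range -0.88 to 0.13), npc2.1 (-0.49 to 0.19), lamp2 (-0.029 to 0.69) and ctsba (-0.96 to 0.033), and at 12 h for lamp1b (up to 0.063) and neu3.2 (-0.17 to 0.29, and -0.042 without transected replicate 1). Without both replicate 3 arrays at 4 h, a setting chosen after seeing the data, ctsba at 4 h was at 0.030. Without both replicate 1 arrays at 4 h, also chosen after seeing the data, the pump median at 4 h was 0.017 and ctss2.2 at 4 h was at 0.068. With a floor of 32 the 11 d changes of cln3 and asah1a were 0, since all their signals were then at the floor. The cause of the other turns was not tested. With only the brightest 10334 probe sets (39 members) the prior had 5.80 degrees of freedom and no member was called, as with the block added, a setting also chosen after seeing the data. Signals near the floor of 16 limit what ctsll, ctsl.1, cln3, ctss1 and asah1a can show.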
